A study of Mus musculus with 8 samples.

Results

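Many miRNAs are cut from longer RNA polymerase II transcripts, and 7 such host gene transcripts were followed here in mouse cerebral cortex: Mir9-3hg, Mir124a-1hg, Mir124-2hg, Mir100hg, Mir99ahg, Mir22hg and Mir17hg. They were taken by their gene symbols from a count table of 55416 genes. Polyadenylated RNA had been sequenced in 4 libraries from heterozygous knock-in mice, made with CRISPR and carrying L192P in Ago2 (labelled AGO2_L192P/+, here L192P), and in 4 from wild-type animals (WT). L192P is a substitution found in people with Lessel-Kreienkamp syndrome, a neurodevelopmental disorder, and the comparison asks which cortical transcripts differ in abundance between the genotypes. Heterozygous mice came from crosses to WT animals on a C57BL/6 background and keep a WT allele of Ago2 in every cell. Age and sex are not given in the sources used here.

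A primary miRNA transcript folds into hairpins that the nuclear Drosha complex cuts out, and Dicer then trims each hairpin to a duplex of which an Argonaute protein such as AGO2 keeps a strand. That strand guides Argonaute to mRNAs that match its seed, the bases at positions 2 to 8 from the 5′ end. In the brain, miR-124 and miR-9 are known for their part in the making of neurons and glia, and the let-7 and miR-125 families for developmental timing. The hairpin itself is lost from a mature host RNA or lies in an intron, so the count of a host gene follows the rest of its transcript and not the mature miRNA.

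The hosts hold 17 annotated miRNA genes, and 14 of these matched the RefSeq table used here (build GRCm38.p6), with 26 mature sequences and 22 distinct seeds. Mir124a-1, Mir124a-2 and Mir3078 had no match, so miR-124 is not among the sequences shown. The guide strands that tie the hosts into families are shown 5′ to 3′, with the seed in capitals.
miR-9-5p, in Mir9-3hg: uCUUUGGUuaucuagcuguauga
miR-100-5p, in Mir100hg: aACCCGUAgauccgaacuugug
miR-99a-5p, in Mir99ahg: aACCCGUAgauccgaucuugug
miR-125b-5p, in Mir100hg and Mir99ahg: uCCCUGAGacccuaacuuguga
let-7c-5p, in Mir99ahg: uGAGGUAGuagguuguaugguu
miR-22-3p, in Mir22hg: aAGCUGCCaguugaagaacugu
miR-17-5p, in Mir17hg: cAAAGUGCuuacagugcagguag
miR-20a-5p, in Mir17hg: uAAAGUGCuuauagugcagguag
miR-18a-5p, in Mir17hg: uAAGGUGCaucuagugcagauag
miR-19a-3p, in Mir17hg: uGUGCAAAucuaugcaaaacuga
miR-19b-3p, in Mir17hg: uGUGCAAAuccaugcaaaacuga
miR-92a-3p, in Mir17hg: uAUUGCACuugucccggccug

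Mir100hg and Mir99ahg are paralogous hosts. Counting positions from 1 at the 5′ end, miR-100-5p and miR-99a-5p differ by A16U and share the other 21 of 22 bases, seed included. Both hosts also carry the same miR-125b-5p and a member of the let-7 family each, Mirlet7a-2 in Mir100hg and Mirlet7c-1 in Mir99ahg. Mir17hg carries the miR-17 to miR-92 cluster, in which miR-17-5p and miR-20a-5p share a seed and miR-19a-3p and miR-19b-3p differ by U11C. Mir124a-1hg carries Mir124a-1 and Mir3078, and Mir124-2hg carries Mir124a-2.

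The 7 hosts lie on 6 chromosomes of GRCm39, all annotated as lncRNA on the plus strand (GENCODE M39). Mir9-3hg is at chr7:79146444-79184154, Mir124a-1hg at chr14:64824613-64835573 and Mir124-2hg at chr3:17840052-17906250. Mir100hg spans 390.0 kb at chr9:41238321-41628290 and Mir99ahg 615.6 kb at chr16:76970521-77586092. Mir22hg is at chr11:75352365-75357502 and Mir17hg at chr14:115278211-115284162. The miR-22 hairpin lies in an exon of both Mir22hg transcripts. By contrast, the 6 hairpins of Mir100hg and Mir99ahg lie in no exon of any annotated transcript, and in an intron of the canonical transcript. The hairpins of Mir9-3hg, Mir124a-1hg, Mir124-2hg and Mir17hg are exonic in 1 or 2 transcripts and intronic in the canonical transcript. In the count table, 14 of the 17 miRNA genes had 0 counts in all 8 libraries, where a 0 allows up to 3 counts per library, and the other 3 had 24 counts in all.

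The libraries held between 20396357 and 43575900 counts, with WT replicate 2 the deepest. Ago2 itself was at 2291 ± 75.1 normalized counts (L192P) and 2246 ± 130 (WT; SD, n = 4 each), where a normalized count is the count divided by the size factor of its library. Replicate 1 of both genotypes stood apart from the other 6 libraries on the first principal component (42.5% of the variance). In these 2 libraries Xist, which is expressed from an inactive X chromosome, was at 0.934 and 1.82 normalized counts, against 5185 to 7257 in the others, and counts on the Y chromosome were 3547 and 3534, against 186 to 573. Over the marker lists, the summed level of 4 of 4 excitatory cortical neuron markers was 34100 to 38790 normalized counts in the L192P libraries, against 39310 to 40870 in WT, and none of the 4 was called, with Slc17a7 making up most of the sum. The summed level of 4 of 4 hypothalamic markers was 42.1 to 1041 for L192P, against 18.7 to 31.9 for WT, with Avp and Oxt called. The other 14 of 16 marker lists, of inhibitory neurons, glia, vessels, blood, choroid plexus, progenitors and other brain regions, overlapped between genotypes in their summed level. Among all single genes tested, 5.97% did not overlap. Of all 56 markers 4 were called, the others being Gad2 of inhibitory neurons (log2 fold change 0.34, adjusted p = 0.0235) and Eomes of progenitors (1.70, adjusted p = 0.0204). In bulk tissue, fewer cells of a type and less RNA per cell cannot be told apart.

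None of the 7 host transcripts passed the test for a difference between L192P and WT. DESeq2 called 0 of 7 at an adjusted p under 0.05, and 0 of 7 had an unadjusted p under 0.05, while 1.36% of all 18627 genes tested were called (253 genes). edgeR called 0 of the 6 hosts that passed its filter, also with 0 at an unadjusted p under 0.05, and 0.314% of all genes. Of the 7 estimates, 3 lay above 0 and 4 below it, with a median log2 fold change of -0.07, against 0.0019 over all genes tested. The groups overlapped for all 7 hosts, while they did not overlap for 5.97% of the genes tested.

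**Figure D1:**
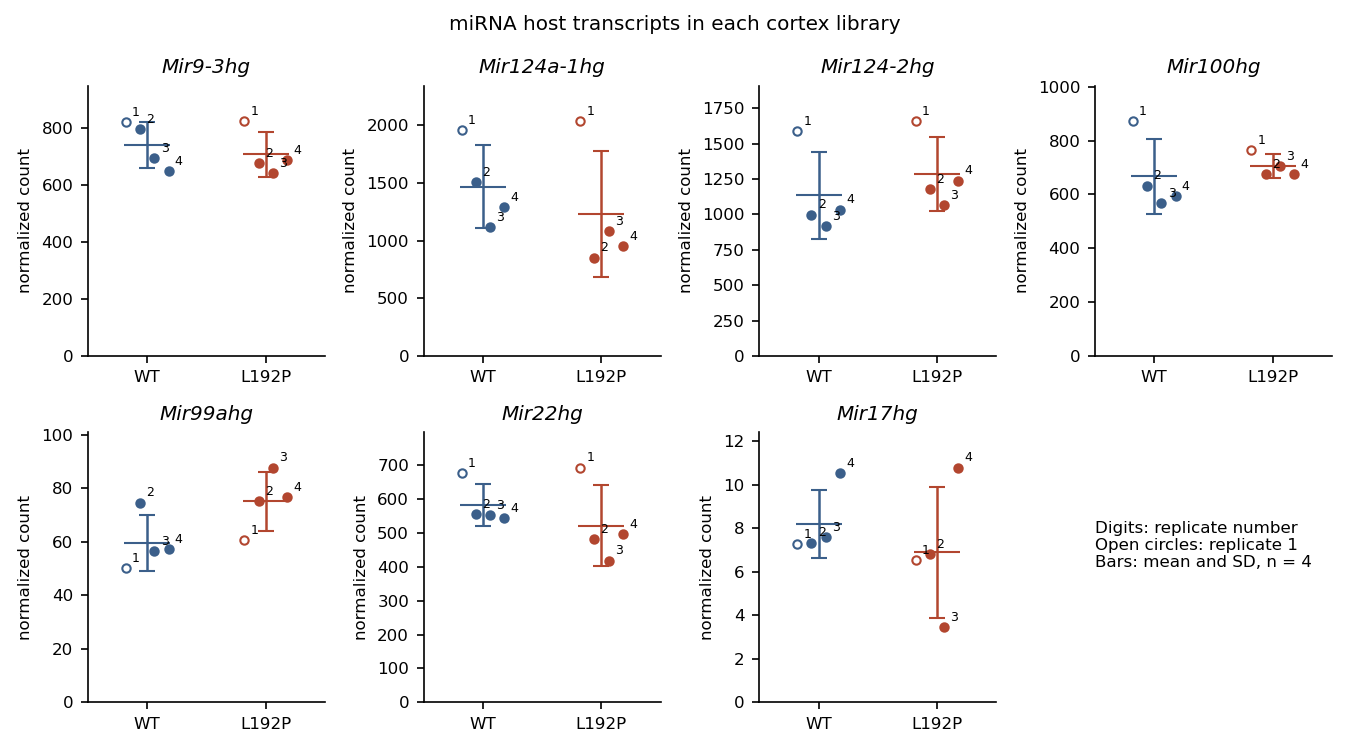
Normalized counts (y axes, from 0) of the 7 host transcripts in the 4 WT and 4 L192P libraries, with digits for the replicate number, open circles for replicate 1, and a bar for the mean and SD. The genotypes overlap in every panel, and both replicate 1 libraries sit above the other 6 for 5 of the 7 hosts.

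The estimates of the miR-124 hosts lay on opposite sides of 0. Mir124a-1hg, also known as Rncr3, was at 2037, 853.5, 1082 and 949.9 normalized counts in L192P replicates 1 to 4 and at 1958, 1510, 1118 and 1291 in WT. Replicate 1 was highest in both genotypes, and among the other libraries the 3 L192P values lay below the 3 WT values. The means were 1230 ± 546 in L192P and 1469 ± 363 in WT (SD, n = 4 each), a log2 fold change of -0.26 ± 0.34 (SE, adjusted p = 0.927) with a 95% interval of 0.529 to 1.33 as a ratio of L192P to WT, and the exact two-sided permutation test of the means gave p = 0.486. The estimate was -0.61 without L192P replicate 1 and -0.09 without WT replicate 1, with no call in either fit.

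Mir124-2hg was at 1658, 1178, 1064 and 1239 normalized counts in L192P and at 1590, 998.2, 917.9 and 1033 in WT. Replicate 1 was again the highest of each genotype, and the L192P library was the higher of its pair in 4 of 4 same-numbered pairs, as it was for 12.3% of all genes tested. The log2 fold change was 0.18 ± 0.23 (SE, adjusted p = 0.926), an interval of 0.826 to 1.55 as a ratio, and with the replicate number as a block it was 0.19 ± 0.07 (adjusted p = 0.128). Without WT replicate 1 it was 0.39 (adjusted p = 0.0517), and without L192P replicate 1 it was 0.03 (adjusted p = 0.99).

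Without the 2 libraries of replicate 1, Mir124a-1hg was called lower in L192P, with a log2 fold change of -0.45 ± 0.11 (SE, adjusted p = 0.00524), in a fit that called 3.46% of 14437 genes, with 1.81% of the 14437 called lower. It was the only host called under any of the 17 alternatives. Mir124-2hg was at 0.24 ± 0.09 in the same fit (adjusted p = 0.135). The call for Mir124a-1hg rests on 3 libraries a genotype, for which the exact permutation test cannot go below p = 0.1, the value it gave. With all 8 libraries and the replicate number as a block, the log2 fold change was -0.31 ± 0.20 (adjusted p = 0.53). In the same 6 libraries, 5 of the 16 marker lists did not overlap between genotypes in their summed level. Among all single genes tested there, 20.8% did not overlap. Excitatory neuron markers were at 34100 to 35870 in L192P, against 39310 to 40870 in WT, and Slc17a7 among them was called in that fit (log2 fold change -0.18, adjusted p = 0.0175). Microglial markers were at 4540 to 5496, against 4028 at most in WT, and mural and fibroblast markers at 2276 to 2438, against 1778 to 2266. Erythroid markers were at 2233 to 3060, against 1414 to 1932, and hypothalamic markers at 42.1 to 1041, against 18.7 to 21.7. The part of any of these in the lower Mir124a-1hg was not tested.

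**Figure D2:**
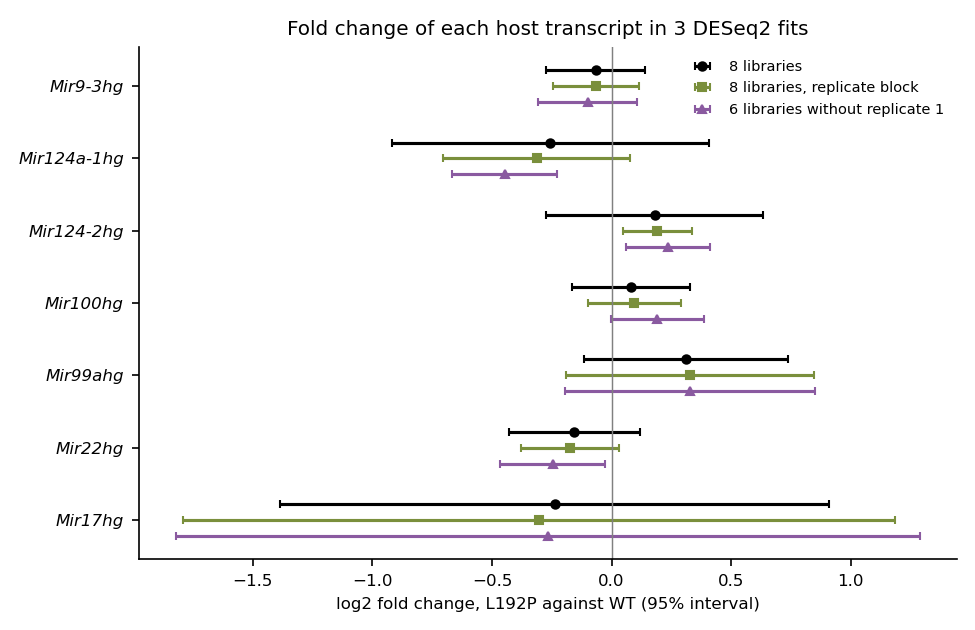
Log2 fold change of each host transcript, L192P against WT (x axis, points with 95% intervals), from DESeq2 on 8 libraries, on 8 libraries with the replicate number as a block, and on the 6 libraries without replicate 1. Each host keeps its side of 0 in all 3 fits, and Mir124a-1hg is the host called, in the fit on 6 libraries.

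The balance between the miR-124 hosts was compared as a log2 ratio of normalized counts plus 1. Mir124a-1hg to Mir124-2hg stood at 0.296, -0.464, 0.0232 and -0.382 in L192P replicates 1 to 4. In WT the ratio was 0.300, 0.597, 0.284 and 0.322. The WT values lay close together apart from replicate 2, and the 3 lowest of the 8 values were all L192P. The difference was -0.51 on the log2 scale, with the L192P library the lower of its pair in 4 of 4 pairs, although by only 0.296 against 0.300 for replicate 1. The exact two-sided permutation test gave p = 0.0571, adjusted to 0.171 over the 3 ratios compared. Without L192P replicate 1 the difference was -0.65 (exact p = 0.0286), and no other omission brought p under 0.05.

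Mir9-3hg carries the hairpin of miR-9, which is expressed from several loci. Its level was 822.1, 676.0, 641.1 and 686.4 normalized counts in L192P and 817.7, 795.4, 693.1 and 647.4 in WT. Both groups covered nearly the same range. The log2 fold change was -0.07 ± 0.11 (SE, adjusted p = 0.948), with an interval of 0.828 to 1.10 as a ratio, and ran from -0.15 to -0.01 without 1 library.

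C130071C03Rik, which holds Mir9-2 and is named Mir9-2hg in GENCODE M39 (chr13:83863087-84100589), is another miR-9 host. Its level was 1079 ± 201 normalized counts (L192P) and 1170 ± 75.5 (WT; log2 fold change -0.11 ± 0.11, adjusted p = 0.878). The log2 ratio of Mir9-3hg to C130071C03Rik was -0.60 ± 0.12 in L192P and -0.67 ± 0.15 in WT (SD, n = 4 each). The ratios overlapped between genotypes (exact permutation p = 0.457, 0.486 adjusted over the 3 ratios).

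The paralogous hosts Mir100hg and Mir99ahg both had estimates above 0. Mir100hg was at 766.1, 674.8, 706.8 and 675.6 normalized counts in L192P and at 872.4, 633.2, 568.1 and 594.7 in WT. The highest and the 3 lowest values were all WT. The log2 fold change was 0.08 ± 0.13 (SE, adjusted p = 0.943), with an interval of 0.892 to 1.25 as a ratio, and ran from 0.01 (without WT replicate 3) to 0.23 (without WT replicate 1).

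Mir99ahg was at 60.7, 75.1, 87.6 and 76.7 normalized counts in L192P and 50.1, 74.6, 56.5 and 57.4 in WT. WT replicate 2 was the WT library among the L192P values, and L192P was higher in 4 of 4 same-numbered pairs. Its estimate was the largest among the 7 hosts, with a log2 fold change of 0.31 ± 0.22 (SE, adjusted p = 0.75), an interval of 0.923 to 1.67 as a ratio, and an exact permutation p = 0.0571. Behind it stood 49 to 132 counts per library.

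The ratio of Mir100hg counts to Mir99ahg counts, which also carries their difference in length, was 8.07 to 12.6 in L192P and 8.49 to 17.4 in WT. The largest ratios were those of the replicate 1 libraries. On the log2 scale the ratio differed by -0.23 between the genotypes (exact permutation p = 0.486, also 0.486 after adjustment over the 3 ratios).

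**Figure D3:**
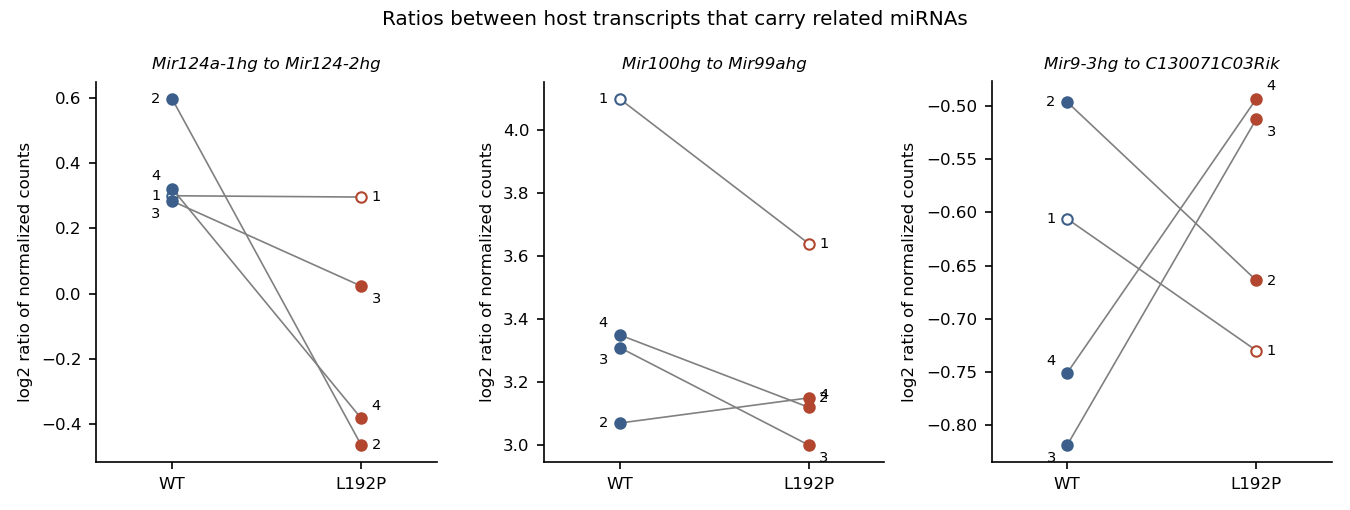
Log2 ratio of normalized counts plus 1 (y axes) for the 3 pairs of hosts that carry related miRNAs, with lines joining same-numbered WT and L192P libraries and open circles for replicate 1. For Mir124a-1hg to Mir124-2hg the L192P values range from -0.464 to 0.296 and the WT values lie between 0.284 and 0.597, so that L192P replicate 1 alone reaches the WT range. The genotypes overlap for the other ratios as well.

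Mir22hg, the host of the broadly expressed miR-22, was at 691.3, 480.2, 417.4 and 494.7 normalized counts in L192P and at 674.8, 555.3, 551.8 and 542.0 in WT. Outside replicate 1, the 3 L192P values lay below the 3 WT values. The log2 fold change was -0.16 ± 0.14 (SE, adjusted p = 0.853, an interval of 0.742 to 1.09 as a ratio) over 8 libraries and -0.25 ± 0.11 (adjusted p = 0.262) over those 6. Without 1 library it ran from -0.33 (without L192P replicate 1) to -0.06 (without L192P replicate 3).

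Mir17hg, whose cluster is known for its activity in dividing cells and is activated by MYC and E2F factors, was scarcely detected. It had 3 to 9 counts in the L192P libraries and 7 to 13 in the WT libraries. This gave 6.5, 6.8, 3.5 and 10.8 normalized counts in L192P and 7.3, 7.3, 7.6 and 10.5 in WT. At this depth a difference was not detectable unless large, since the 95% interval of the ratio of L192P to WT ran from 0.383 to 1.88.

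Replicate 1 stood apart for most of the hosts. Both replicate 1 libraries exceeded all 6 others for 5 of the 7 hosts (Mir9-3hg, Mir124a-1hg, Mir124-2hg, Mir100hg and Mir22hg), as they did for 8.86% of all genes tested. The ratio of their mean to the mean of the others was 1.76 for Mir124a-1hg, 1.52 for Mir124-2hg, 1.35 for Mir22hg, 1.28 for Mir100hg and 1.19 for Mir9-3hg. It was 0.777 for Mir99ahg and 0.891 for Mir17hg. Among the 6 remaining libraries the genotypes did not overlap for 5 of the 7 hosts, with Mir124a-1hg and Mir22hg lower and Mir124-2hg, Mir100hg and Mir99ahg higher in L192P, where 20.8% of the genes tested in those libraries did not overlap. Summed oligodendrocyte markers were lower in the replicate 1 libraries (73080 and 75060 normalized counts) than in the others (85460 to 107300), as were astrocyte markers (10880 and 11890, against 15340 to 17530). The part of cell composition or of the sex-linked pattern in these levels was not tested.

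Levels of different hosts are comparable only per length. With the union of all annotated exons as the length, WT levels were 302 ± 32.6 normalized counts per kb for Mir22hg, 238 ± 58.9 for Mir124a-1hg and 119 ± 32.2 for Mir124-2hg (SD, n = 4). They were 81.3 ± 8.96 for Mir9-3hg, 17.1 ± 3.58 for Mir100hg, 1.94 ± 0.372 for Mir17hg and 1.36 ± 0.238 for Mir99ahg. Mir22hg and Mir124a-1hg overlapped in their WT libraries, so their order is not beyond the spread. Mir17hg (1.73 to 2.50) and Mir99ahg (1.14 to 1.70) did not overlap in WT, but in L192P they did, at 0.821 to 2.56 and 1.38 to 1.99. GENCODE M39 lists 169 transcripts for Mir100hg and 278 for Mir99ahg, whose union reaches 39.0 and 43.9 kb, and for these hosts the length in use changed the level more than the spread of the libraries. For Mir22hg it moved the WT mean from 302 to 332, within the range of its WT libraries (282 to 351). Over the longest transcript instead, WT levels were 332 for Mir22hg, 308 for Mir124a-1hg, 295 for Mir124-2hg, 214 for Mir9-3hg, 157 for Mir100hg, 16.2 for Mir99ahg and 2.32 for Mir17hg, so that Mir99ahg lay above Mir17hg, and the libraries of the first 3 overlapped. In L192P the first 3 were ordered Mir22hg (271), Mir124a-1hg (200) and Mir124-2hg (135) over the union, and Mir124-2hg (334), Mir22hg (297) and Mir124a-1hg (258) over the longest transcript.

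**Figure D4:**
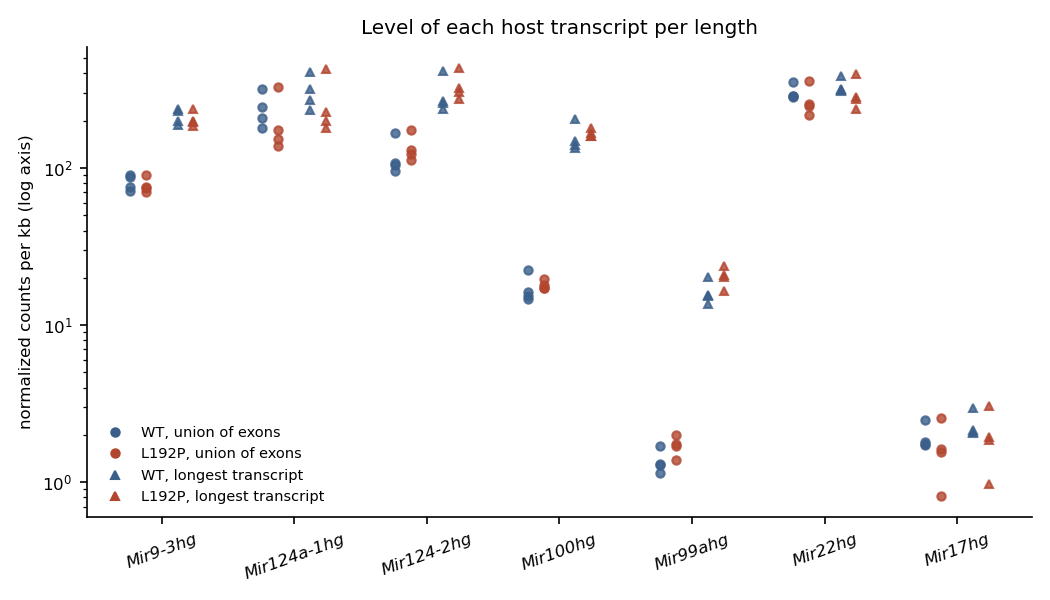
Normalized counts per kb (log axis) of each host in the 8 libraries, over the union of annotated exons (circles) and over the longest transcript (triangles), with WT in blue and L192P in red. Among WT means the order is the same under both lengths except that Mir17hg and Mir99ahg change places, and among L192P means Mir124-2hg moves from 135, below Mir22hg and Mir124a-1hg, to 334, above both.

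Each host but Mir17hg was compared with 13421 other genes of at least 50 normalized counts for the likeness of its levels over the 8 libraries, as Pearson's r of log2 normalized counts plus 1. These r values describe libraries that share genotype and the offset of replicate 1. Mir124a-1hg was most like Miat, another long noncoding RNA of neurons (r = 0.985, and 0.963 over the 6 libraries without replicate 1), and Bbs5 (r = 0.985, and 0.953). Mir124-2hg was most like the proteasome subunit gene Psmd12 (r = 0.987, and 0.965) and Triqk (r = 0.974, and 0.944). The leading genes were Eif2d and Pcsk4 for Mir9-3hg, Rbm17 and Psmd6 for Mir100hg, Ctsl and Fbln1 for Mir99ahg, and Gm43682 and Gabra4 for Mir22hg, with r from 0.939 to 0.979. Over the 6 libraries these r ran from 0.791, for Rbm17 with Mir100hg, where it had been 0.945, to 0.987, for Fbln1 with Mir99ahg. None of these 12 genes was called between the genotypes.

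The genes around the hosts gave no call either. Of 14 nearest protein-coding genes, a left and a right neighbour for each host, 13 had counts and 0 were called, with log2 fold changes from -0.15 for Polg to 0.33 for Rhcg. Exons of 21 other genes overlap a host, 17 of them on the opposite strand. Of the 9 in the count table, 3 were tested and 0 called. Tlcd2 shares 206 exonic bases with Mir22hg on the same strand and was at 10.2 normalized counts, and 9430053O09Rik shares 701 bases with Mir99ahg on the opposite strand and was at 24.1. How strand was handled in counting is not given in the sources used here, so reads of Mir99ahg and 9430053O09Rik cannot be told apart where they overlap.

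Other genes that host miRNAs were read as a list, of which 64 are in the table and 56 had an adjusted p. It includes Dalrd3, within which GENCODE M39 places no miRNA gene on the same strand. DESeq2 called 1 of the 56 (1.79%, against 1.36% of all genes), with a median log2 fold change of -0.03. An unadjusted p under 0.05 was reached by 12 of the 56 (21.4%, against 9.44% of all genes), 8 of them lower in L192P and 4 higher. With edgeR it was also 12 of 56 (21.4%, against 10.6%). Whether the list differs from all genes was not tested. Of 10 further noncoding hosts 3 were tested and 0 called: C130071C03Rik, Mir670hg (-0.36, adjusted p = 0.541) and Dleu2, the host of Mir15a and Mir16-1 (-0.36, adjusted p = 0.378). Of 53 protein-coding hosts tested, 1 was called, and it fell. That gene, Arpp21, encodes an RNA-binding phosphoprotein of forebrain neurons and carries Mir128-2 (chr9:111894158-112065764, minus strand). R3hdm1 carries Mir128-1 (chr1:128031006-128165476), and both give the same brain-enriched miRNA, whose seed is in capitals.
miR-128-3p, in Arpp21 and R3hdm1: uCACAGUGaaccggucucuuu

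Arpp21 was at 17400, 15310, 11900 and 15160 normalized counts in L192P replicates 1 to 4 and at 20690, 18360, 18220 and 20910 in WT. All 4 L192P values lay below all 4 WT values. The log2 fold change was -0.39 ± 0.10 (SE, DESeq2 adjusted p = 0.0143), and the exact permutation p was 0.0286, the smallest that 4 against 4 libraries can give. The call was lost with edgeR (adjusted p = 0.14), with limma-voom (0.135) and without WT replicate 4 (0.115), and it held in the other 14 alternatives, where it reached 1.71e-09 with the replicate block. Beside this fall, the summed excitatory neuron markers did not overlap between genotypes, as given above, while each of the 4 overlapped and none was called (adjusted p = 0.292 for Slc17a7). Striatal markers summed to 14530 to 18450 normalized counts in L192P, against 17990 to 21040 in WT, with 0 of 4 called, and Drd2 alone among them did not overlap (log2 fold change -0.29, adjusted p = 0.0644). The part of these markers in the fall of Arpp21 was not tested.

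R3hdm1 was at 5551, 4791, 4481 and 5313 normalized counts in L192P and at 5762, 5304, 5609 and 6310 in WT. The groups overlapped by 2 libraries of L192P, and the L192P library was the lower in 4 of 4 pairs, as for 11.4% of genes tested. The log2 fold change was -0.19 ± 0.08 (SE, adjusted p = 0.342), and with the replicate block -0.19 (adjusted p = 0.0137), in a fit that called 4.25% of 12536 genes. Gabre, a GABA-A receptor subunit gene that carries Mir224 and Mir452, had the largest estimate of the list, 1.73 ± 0.54, and was not called (adjusted p = 0.0802).

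**Figure D5:**
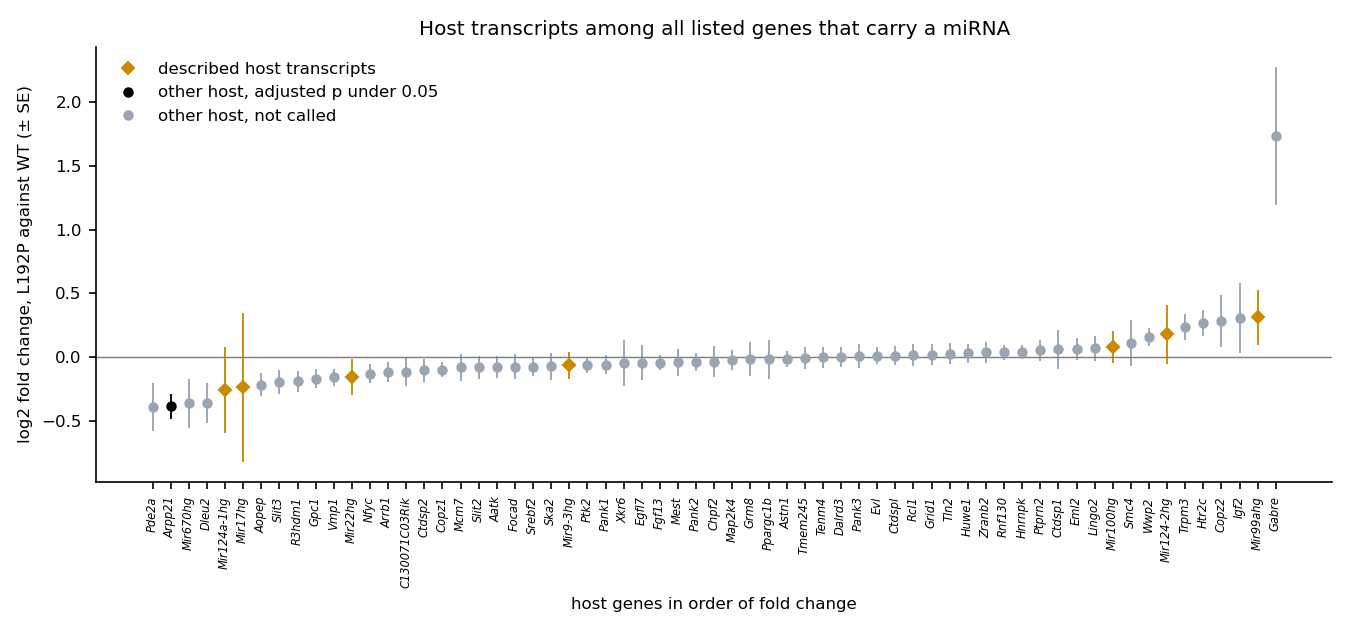
Log2 fold change with its SE (y axis) of the 7 described host transcripts (diamonds) and 56 other genes listed as hosts (circles), in order of the estimate (x axis). Arpp21, in black, is the gene called, at -0.39, and the described hosts are spread from -0.26 for Mir124a-1hg to 0.31 for Mir99ahg.

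Well-known targets of the hosted miRNAs were read in the same way. Of 40 target genes, 37 were tested, 1 was called (2.7%, against 1.36% of all genes) and 3 had an unadjusted p under 0.05 (8.11%, against 9.44%), with a median log2 fold change of -0.03. Targets of miR-124 (0 of 7 called), miR-9 (0 of 7), let-7 (0 of 5 tested), miR-125 (0 of 2 tested), miR-99 and miR-100 (0 of 4) and miR-22 (0 of 5) gave no call. Ptbp1, the splicing repressor that miR-124 holds down in neurons, had 457.1 ± 60.0 normalized counts (L192P) and 449.7 ± 46.2 (WT; adjusted p = 0.993). Its estimate of 0.02 turned to between -0.0022 and -0.06 in 5 of 17 alternatives.

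The called target was Cdkn1a, which encodes the cell cycle inhibitor p21 and is a target of the miR-17 cluster. It was at 607.3, 698.7, 620.3 and 602.5 normalized counts in L192P and 764.0, 795.4, 793.0 and 763.3 in WT. The groups did not overlap, and the log2 fold change was -0.30 ± 0.08 (SE, DESeq2 adjusted p = 0.0163). The call was lost in 9 of 17 alternatives, among them edgeR (adjusted p = 0.0961), limma-voom (0.10), the 6 libraries without replicate 1 (0.0682), and the omission of L192P replicate 1 (0.0811), 3 (0.121) or 4 (0.132) or of WT replicate 2 (0.131), 3 (0.134) or 4 (0.0862). Its estimate stayed between -0.35 and -0.28.

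Of 11 known regulators of these hosts or of their processing, 10 were tested and 0 called, with 1 at an unadjusted p under 0.05 (E2f1, log2 fold change -0.20, adjusted p = 0.475). Rest, which represses neuronal miRNA genes outside neurons, had 118.9 ± 29.4 normalized counts (L192P) and 103.3 ± 18.9 (WT; log2 fold change 0.21 ± 0.21, adjusted p = 0.876). Lin28b, which blocks let-7 maturation, was at 100.8 ± 22.6 and 109.6 ± 14.8 (adjusted p = 0.946). Lin28a had between 0 and 2.80 normalized counts per library and no adjusted p.

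As a description of the messages that the hosted miRNAs could reach, 12549 tested genes with at least 50 normalized counts were split by an exact 7-base match to a seed in the canonical transcript's 3′ UTR, on its sense strand. The matches searched were ACCAAAG (miR-9-5p), CTACCTC (let-7c-5p), TACGGGT (miR-99a-5p and miR-100-5p), CTCAGGG (miR-125b-5p), GGCAGCT (miR-22-3p), GCACTTT (miR-17-5p and miR-20a-5p), GCACCTT (miR-18a-5p), TTTGCAC (miR-19a-3p and miR-19b-3p) and GTGCAAT (miR-92a-3p), and matches of different families can overlap. No match to miR-124, carried by Mir124a-1hg and Mir124-2hg, was searched, because its mature sequence was not among those found. Genes with a match differed from genes without it by a median log2 fold change of -0.0086 (miR-18a-5p) to 0.013 (miR-9-5p) over the families searched. For miR-125b-5p, which both paralogous hosts carry, 2266 genes had a match (median -0.0069, against 0.0004 without), and 29 of them were called lower and 19 higher (2.12% called, against 1.69% without a match, and 1.28% lower, against 0.671%). For let-7c-5p, 1506 genes had a match, of which 11 were called lower and 17 higher (1.86% called, against 1.76%). For miR-99a-5p and miR-100-5p, 182 genes had a match, of which 3 were called lower and 5 higher (4.40% called, against 1.73%). For every family searched, the share called was higher with a match than without. The share called lower was also higher with a match, except for miR-9-5p (0.746%, against 0.788%) and let-7c-5p (0.73%, against 0.788%). Genes without a match are not matched for UTR length, and no test was made of these splits.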

How the data were processed

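The authors sequenced stranded mRNA libraries of mouse cerebral cortex, aligned the reads to GRCm39 with STAR (2.7.9a in the submitters' processing notes), counted them per gene with featureCounts 1.5.1 and deposited raw counts per library, without pooling. The strand setting and the annotation release are not given in the sources used here. The authors also deposited a table of normalized signal, the counts divided by DESeq2 size factors, and size factors computed here gave the same values to within 3.49e-10. From the counts, DESeq2 1.42.0 (R 4.3.3) was fitted over all genes on genotype alone, with median-of-ratios size factors, default filters at 0.05 and no shrinkage, and a Benjamini-Hochberg adjusted p under 0.05 was a call. Single values and ratios were compared by exact two-sided permutation over libraries.

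Alternatives were edgeR 4.0.16 and limma-voom 3.58.1 with TMM, TMM or total-count size factors, a filter of 10 counts in 4 libraries, no independent or Cook filter, a replicate block, the 6 libraries with high Xist, and leaving out each library. Nothing says which libraries come from separate animals, so p-values measure the spread between these libraries. Libraries of a genotype differed by 5.52 to 22.6 in chi-square per degree of freedom, so none was a duplicate. Over 13422 genes, deviations from the group mean correlated between same-numbered libraries at 0.628, 0.381, 0.233 and 0.327, and between different numbers at -0.375 to 0.144. The numbers, given in the titles, were therefore taken to pair the libraries. On simulated counts for 55416 genes, DESeq2 recovered 93% of 200 genes changed by 1 log2 unit, all 186 in the right direction, with 19 false calls among 205. The changed genes were drawn from those with a mean of at least 50 normalized counts, and no offset of replicate 1 was simulated. The recovery therefore does not cover smaller changes or genes as low as Mir17hg.

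The members, gene lists, tests and naming rule were chosen with earlier results of these data known. Named were the 7 hosts, the miRNA genes inside them, genes sharing exons with them, their nearest coding genes, called genes of each list, C130071C03Rik, Arpp21, R3hdm1, Ptbp1, Rest, Lin28a and Lin28b, and the 2 genes most like each host with at least 50 normalized counts. Dleu2, Mir670hg, Gabre, E2f1 and Dalrd3 were named after their values were seen. Positions, exons and 3′ UTRs came from GENCODE M39 (GRCm39). Sequences came from RefSeq. Intervals of fold changes are 95%, and the limit given for a count of 0 covers counting error only.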

Additional observations from a re-analysis of the deposited data

Results flagged for a closer look

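Values of the 7 hosts, of Arpp21, R3hdm1, C130071C03Rik, Cdkn1a, Ptbp1, Rest and Lin28b, and of the 3 ratios were examined by Dixon's test for a library remote from the rest of its genotype, at the 95% level. Of 34 groups of 4 libraries, 4 held such a library, where chance gives about 1.7. Mir124-2hg stood at 1590 normalized counts in WT replicate 1, against 917.9 to 1033 in the other WT libraries. Mir22hg stood at 674.8 in the same library, against 542.0 to 555.3. Mir17hg stood at 10.5 normalized counts in WT replicate 4, against 7.29 to 7.60, which are differences of a few counts. The log2 ratio of Mir124a-1hg to Mir124-2hg stood at 0.597 in WT replicate 2, the deepest library, against 0.284 to 0.322.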

How the results depend on the processing

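Across 17 alternatives, all 116 estimates of the 7 hosts kept their direction, and 1 passed the threshold: Mir124a-1hg in the 6 libraries with high Xist (-0.45, adjusted p = 0.00524), where 1 host in place of 0 was called. Mir17hg gave no estimate with edgeR, limma-voom or the count filter, which removed it. The calls over all genes, 253, became 53 with edgeR, 45 with limma-voom, 533 with the replicate block, 500 in the 6 libraries and 112 to 496 without 1 library. The calls among other hosts, 1, became 0 with edgeR and limma-voom, 3 with the replicate block and in the 6 libraries, and 0 to 3 without 1 library. The calls among targets, 1, became 0 with edgeR, limma-voom and in the 6 libraries, 2 with the replicate block, and 0 to 2 without 1 library. The replicate block called none of the 5 hosts it tested and gave Mir99ahg and Mir17hg no adjusted p. It gave differences of -0.51, -0.23 and 0.07 for the 3 ratios in the order of the report, where 4 pairs cannot give an exact p below 0.125. The ratio of Mir124a-1hg to Mir124-2hg differed by -0.65 to -0.40 without 1 library (exact p from 0.0286 to 0.0857), with the lowest p without L192P replicate 1. Regulators stayed at 0 calls throughout. The estimate of Ptbp1 turned to -0.0022 with limma-voom and, without 1 library, ran from -0.0570 to 0.0881 (-0.0570 without L192P replicate 2, -0.0088 without L192P replicate 3, -0.03 without WT replicate 1 and -0.02 without WT replicate 4). The cause of these changes was not tested. Depth limits Mir17hg, with 3 to 13 counts a library.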
